A study of Mus musculus with 9 samples.

Results

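The genes of the AMPA and NMDA receptor subunits were examined in the cerebellum of a mouse model of spinocerebellar ataxia type 3 (SCA3). The 10 genes Gria1 to Gria4, Grin1, Grin2a to Grin2d and Grin3a were chosen by name from the 37816 genes with counts, each gene identifier being matched to its symbol. All 10 had enough counts to be tested, as had 19353 genes in all. The data were RNA-seq counts from 9 libraries in 3 groups of 3, made from cerebellar tissue of C57BL/6 mice harvested at the age of 18 months. Mice of the 15Q group, the controls, carried a yeast artificial chromosome (YAC) with the human ATXN3 gene and 15 CAG repeats. Mice of the 84Q group carried ATXN3 with 84 CAG repeats, the expanded tract of the disease. Mice of the 84Q+IGF1 group had the same 84Q genotype and received weekly intraperitoneal injections of 50 mg/kg insulin-like growth factor 1 (IGF1) from the age of 9 months. The protocol gives PBS injections for the other mice, whereas their treatment label reads untreated. The 15Q and 84Q mice came from different suppliers. By the genotype descriptions every group carried the human transgene, so that no group was without it. Counts assigned to the mouse Atxn3 gene were present in all groups.

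AMPA and NMDA receptors are ion channels that glutamate opens at excitatory synapses. AMPA receptors are assembled from the GluA1 to GluA4 subunits, encoded by Gria1 to Gria4, and carry most of the fast current. NMDA receptors need the GluN1 subunit of Grin1, which binds glycine or D-serine, together with glutamate-binding GluN2 subunits (Grin2a to Grin2d) or glycine-binding GluN3 subunits (Grin3a). In the cerebellum, mature granule cells are known for GluN2A and GluN2C, Purkinje cells for GluA2 and GluA3, and Bergmann glia for AMPA receptors of GluA1 and GluA4 that lack GluA2.

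The subunits are close relatives, and a stretch of their mRNA shows both what they share and what a gene count cannot see. The first set of sequences, from the GENCODE vM21 transcripts on GRCm38, surrounds the glutamine/arginine site of the channel pore, where RNA editing in Gria2 exchanges the encoded glutamine for arginine. The capitals mark the codon of that site, each stretch lies within 1 coding exon, and the genomic codon is for glutamine in all 4 genes.
Gria1: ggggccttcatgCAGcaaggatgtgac
Gria2: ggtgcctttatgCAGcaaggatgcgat
Gria3: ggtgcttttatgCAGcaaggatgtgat
Gria4: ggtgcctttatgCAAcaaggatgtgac

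These stretches lie at chr11:57243082-57243108 on the plus strand for Gria1, chr3:80706899-80706925 on the minus strand for Gria2, chrX:41610253-41610279 on the plus strand for Gria3 and chr9:4464125-4464151 on the minus strand for Gria4. The counts of Gria2 sum edited and unedited RNA, and those of all AMPA subunit genes sum the flip and flop splice forms. The values below are therefore levels of a gene's RNA, not of a channel with a given ion selectivity.

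The second set is the 30-base core of the third membrane segment, the part of the pore gate that is most alike across glutamate receptors, and it is shown for 8 of the genes to compare them at 1 place. Capitals mark a base that differs from the most frequent base of these 8 genes at that position. At position 9, counted from the left, a and t were equally frequent, and a, the first in the alphabet, was taken as the reference.
Gria1: tcAtacacagccaacctggctgccttcctg
Gria2: tcctacacGgcTaacTtAgctgccttcctg
Gria3: tcctacacTgcAaacctTgctgcTttcctg
Gria4: tcctacacTgcTaaTctggctgcAttcctg
Grin1: tcctacacTgccaacctggcAgccttcctg
Grin2a: AGTtacacagccaacctggctgccttcAtg
Grin2c: AGctacacGgccaaTctggcAgccttcAtg
Grin3a: AcAtacacagcGaacTtggctgcTGtcAtg

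On GRCm38 these stretches, each within 1 coding exon, are chr11:57283571-57283600 (plus strand) for Gria1, chr3:80702566-80702595 (minus) for Gria2, chrX:41620858-41620887 (plus) for Gria3, chr9:4462014-4462043 (minus) for Gria4 and chr2:25297196-25297225 (minus) for Grin1. Those of Grin2a, Grin2c and Grin3a are on the minus strand, at chr16:9653444-9653473 for Grin2a, chr11:115253746-115253775 for Grin2c and chr4:49770467-49770496 for Grin3a. Any 2 of these 8 genes were identical at 21 to 27 of these 30 bases. Over the whole exon sequence the likeness was too low for many reads to be shared: of the 31-base words of each gene, between 0 and 0.815% also occurred in another of the 10 genes. The highest share was that of Gria4, with 51 of 6257 words, and Grin1, Grin2a and Grin3a shared none.

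The 10 genes are spread over the genome, and each was counted over its exons. On GRCm38, Gria1 lies at chr11:57011387-57330244, Gria2 at chr3:80681450-80802835, Gria3 at chrX:41400854-41678601 and Gria4 at chr9:4417896-4796234. Grin1 lies at chr2:25291181-25319187, Grin2a at chr16:9567898-9995560, Grin2b at chr6:135713233-136173511, Grin2c at chr11:115249169-115267243, Grin2d at chr7:45831883-45878378 and Grin3a at chr4:49661611-49845744. Exons of Grin1 overlap those of the antisense gene Grin1os by 1307 bases, and exons of Grin2d overlap those of Gm45441 on the other strand by 643 bases. The library kit marks the strand of the RNA, but the strand setting of the counting was not given in the sources used here, so the counts of these gene pairs may not be separate. For the other members the overlap with any 1 other gene was at most 143 bases.

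Library totals ranged from 17482654 to 58269196 counts, and the lowest count of any member in any library was 350, for Grin2d in 84Q replicate 3, against a floor of 3 counts. Between replicates of a group the chi-square per gene was 8.7 to 14.5, where sampling noise alone gives 1. The labels do not say how the mice were related, so p-values measure the spread between these libraries. The titles carry a code for each library whose meaning is not given: its first number is the same in 84Q replicate 1 and 84Q+IGF1 replicate 1, and in 84Q replicate 3 and 84Q+IGF1 replicates 2 and 3, and its part in the results was not tested. The labelled tissue was borne out by the markers of granule and Purkinje cells, whose 10 genes each summed to between 6080 and 6990 and between 7040 and 7820 counts per 1000000 (CPM) in the 9 libraries, whereas 8 markers of forebrain neurons summed to at most 26.0 CPM. Mouse Atxn3 had a mean of 29.1 ± 1.08 CPM in the controls (SD, n = 3), of 27.0 ± 1.82 in 84Q and of 27.0 ± 1.31 in 84Q+IGF1, and the human transgene was not measured here. Of the libraries that stood apart, 15Q replicates 1 and 3 and 84Q replicate 2 had 522, 505 and 1070 CPM over 10 choroid plexus markers, against 28.9 to 69.6 CPM in the other 6, with Ttr the most abundant. All 3 15Q libraries carried intestinal markers (18.0 to 31.4 CPM over 6 genes, led by Muc13, against 1.0 to 2.42 elsewhere) and skeletal muscle markers (13.0 to 19.8 CPM over 6 genes, led by Actn3, against 3.16 to 4.9). Xist RNA, a mark of female tissue, was high in 4 libraries (replicates 2 and 3 of 15Q, the first of 84Q and the second of 84Q+IGF1), so that the sexes were mixed unevenly.

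To compare the levels of different subunits, counts were divided by gene length and scaled to transcripts per 1000000 (TPM). With the length of all annotated exons, Grin2c was the most abundant at 543 ± 44.8 TPM (SD, n = 9), followed by Gria1 at 372 ± 24.1, Gria4 at 321 ± 28.3, Grin1 at 200 ± 13.6 and Gria2 at 107 ± 13.7. The lower levels were those of Gria3 at 47.7 ± 1.63 TPM, Grin2a at 20.9 ± 2.33, Grin2d at 11.8 ± 1.22, Grin3a at 11.5 ± 1.27 and Grin2b at 4.22 ± 0.615. Of the 9 pairs of neighbours in this order, 7 had ranges over the 9 libraries that did not overlap. The exceptions were Gria1 and Gria4, which overlapped in range although Gria1 was the higher in each of the 9 libraries, and Grin2d and Grin3a, of which Grin2d was the higher in 5.

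The order at the top depended on the length used, because the annotated exons of several subunits include very long untranslated parts. The exons of Gria2 cover 15548 bases and its coding part 2804, those of Grin2b cover 24842 and 4447 bases, and those of Grin2c only 5037 and 3717. With coding lengths, Gria1 (302 TPM), Grin2c (280), Gria4 (270), Grin1 (251) and Gria2 (226) formed a group of neighbours with overlapping ranges. The gap below that group remained, since Gria3 followed at 64.4 TPM and Grin2a at 32.4, with ranges that overlapped neither each other nor those above. Grin3a (15.7 TPM), Grin2b (8.96) and Grin2d (7.54) were the lowest, and 4 of the 9 neighbouring pairs were separate.

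**Figure D1:**
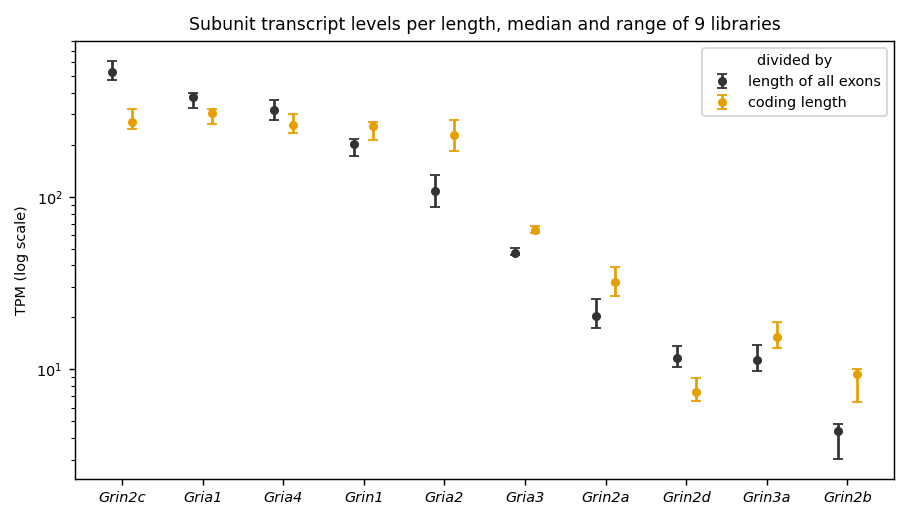
Level of each subunit gene in transcripts per 1000000 (TPM, log scale) as median and range of the 9 libraries, with counts divided by the length of all exons (black) or by the coding length (orange). Grin2c led at a median of 527 TPM with the former and lay among Gria1, Gria4, Grin1 and Gria2 with the latter. Gria3 and the genes to its right were lower with both.

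Within a family, the share of each subunit in the summed TPM does not depend on the scaling between libraries. Among the AMPA subunits Gria1 held 43.9% ± 1.61 (SD, n = 9), Gria4 37.8% ± 1.25, Gria2 12.6% ± 1.09 and Gria3 5.64% ± 0.341. With coding lengths the shares were 35.0% for Gria1, 31.3% for Gria4, 26.1% for Gria2 and 7.5% for Gria3. Both lengths thus gave Gria1 the largest share and Gria3 the smallest. Among the GluN2 subunits Grin2c held 93.6% ± 0.611, Grin2a 3.62%, Grin2d 2.05% and Grin2b 0.733%. With coding lengths the shares were 85.1% for Grin2c, 9.9% for Grin2a, 2.74% for Grin2b and 2.3% for Grin2d. The ranges of the 84Q and 15Q groups overlapped for Gria1, Gria2, Gria4, Grin2a, Grin2c and Grin2d. The share of Grin2b was 0.78% to 0.859% in 15Q, 0.618% to 0.738% in 84Q and 0.478% to 0.896% in 84Q+IGF1. The share of Gria4 did not overlap between 15Q (38.6% to 39.3%) and 84Q+IGF1 (36.3% to 38.0%). With coding lengths these ranges overlapped, at 31.8% to 32.8% and 29.7% to 32.0%. The share of Gria3 was 5.31%, 5.2% and 5.19% in the 15Q libraries, 5.86%, 5.9% and 6.08% in the 84Q libraries, and 5.6%, 5.96% and 5.69% in the 84Q+IGF1 libraries. All 6 libraries with 84 repeats lay above the 3 with 15 repeats, which is given as a description without a test. This also held with coding lengths and in CPM, which weigh the same counts otherwise and are not separate evidence. The separation is singled out from the shares of both families, with no background for how often a share separates. The share depends on all 4 genes: the level of Gria3 itself overlapped between these groups, with a pooled log2 fold change of 0.04 (adjusted p = 0.576), while that of Gria1 was -0.07 (adjusted p = 0.536), of Gria2 -0.16 (adjusted p = 0.291) and of Gria4 -0.19 (adjusted p = 0.0512), by the edgeR test described next.

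**Figure D2:**
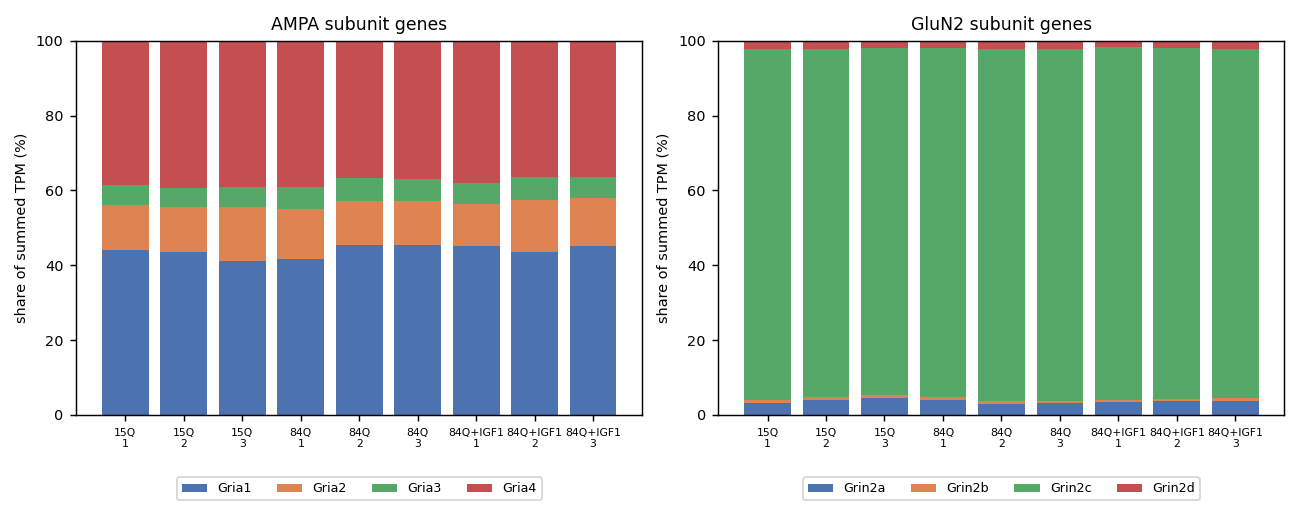
Share (%) of each gene in the summed TPM of the AMPA subunit genes (left) and the GluN2 subunit genes (right), 1 stacked bar per library in the order 15Q, 84Q and 84Q+IGF1, replicates 1 to 3. Gria1 and Gria4 filled most of each AMPA bar and Grin2c between 92.8% and 94.5% of each GluN2 bar, in all 9 libraries.

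The groups were then compared gene by gene, to ask whether the expanded repeat or the IGF1 injections went along with other levels of these subunits. The tests were edgeR quasi-likelihood tests over all 19353 genes with Benjamini-Hochberg adjustment, and the call rule asked for an adjusted p below 0.1 together with a change of 1.5-fold or more. None of the 10 subunit genes was called in 84Q against 15Q, in 84Q+IGF1 against 15Q, in 84Q+IGF1 against 84Q, or in the 6 libraries of 84Q and 84Q+IGF1 together against 15Q. Of all genes tested, 2.14%, 2.25%, 0% and 3.47% were called in these comparisons, so that a list of 10 genes with no call was not far from the rest of the genes. The intervals were narrow: the 95% interval of the log2 fold change of each of the 10 genes lay within ±0.58, the log2 of the fold threshold, in all 4 comparisons. The most extreme bounds were -0.44 and 0.34 in 84Q against 15Q, -0.49 and 0.3 in 84Q+IGF1 against 15Q, -0.36 and 0.34 in 84Q+IGF1 against 84Q, and -0.41 and 0.29 in the pooled comparison. These intervals are per gene and were not widened for the number of genes. The comparisons share libraries, the 15Q libraries in 3 of them, and are therefore not independent of each other.

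When the fold threshold was dropped, 1 subunit gene had an adjusted p under 0.1. Gria4, which encodes GluA4, measured 540, 561 and 557 CPM in the 15Q libraries, 487, 480 and 451 CPM in the 84Q libraries, and 515, 489 and 492 CPM in the 84Q+IGF1 libraries. All 6 libraries with 84 repeats were below all 3 with 15 repeats. Those of 84Q were below those of 84Q+IGF1, nearly touching them at the closest pair (487 and 489 CPM). Gria4 fell by 0.23 on the log2 scale in 84Q against 15Q (SE 0.06, 95% interval -0.35 to -0.1, adjusted p = 0.0654), and its mean CPM differed by -14.5%. Pooled over the 6 libraries with 84 repeats it fell by 0.19 (SE 0.05, interval -0.29 to -0.08, adjusted p = 0.0512). The log2 fold change was -0.15 in 84Q+IGF1 against 15Q (adjusted p = 0.196), and in 84Q+IGF1 against 84Q it was 0.08 (interval -0.04 to 0.2, adjusted p = 0.969). At this rule, 4.8% of all genes passed in 84Q against 15Q (3.25% lower) and 10% in the pooled comparison (6.01% lower), so 1 gene of 10 was near the background in the latter. In 84Q+IGF1 against 15Q 3.67% of all genes passed at any fold (2.63% lower), and 0 of the 10 did.

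The direction of Gria4 held under all alternatives, but its adjusted p did not stay under 0.1. In 84Q against 15Q it was 0.236 without 15Q replicate 2, 0.216 without 15Q replicate 3, 0.103 without 84Q replicate 2 and 0.229 without 84Q replicate 3, and over the alternatives with at least 2 libraries a group it ranged from 0.00237 to 0.236. In the pooled comparison it was 0.201 without 15Q replicate 2 and 0.215 without 15Q replicate 3, over a range of 0.00508 to 0.215. With Xist as a covariate the adjusted p was 0.116 and 0.117. Without the 3 libraries rich in choroid plexus markers, an alternative added after seeing the data, the log2 fold change of Gria4 was -0.25 and, pooled, -0.2. That fit left 1 15Q library, assumed to vary like the other groups, and its adjusted p (0.523 and 0.516) says little about whether the difference holds. Markers of cerebellar interneurons moved in the same direction, summing to 780 to 857 CPM over 10 genes in the 15Q group, 727 to 774 in the 84Q group and 772 to 808 in the 84Q+IGF1 group, which overlapped 15Q. In 84Q against 15Q the log2 fold change of 10 of 10 interneuron markers was negative, as for 9742 of all 19353 genes. Of these markers 0 passed an adjusted p of 0.1 and 2 had an unadjusted p under 0.05. Of all genes 4.8% and 19.4% did so, and these counts were near or below that. In 84Q+IGF1 against 15Q, 6 of the interneuron markers were negative and 4 positive. Markers of microglia moved in the other direction, summing to 148 to 177 CPM over 8 genes in 15Q, 179 to 219 in 84Q and 160 to 172 in 84Q+IGF1, with 7 of 8 positive in 84Q against 15Q and 2 past an adjusted p of 0.1. Of 10 oligodendrocyte markers 8 were positive and 2 passed, although their sums overlapped, at 4080 to 4380 CPM in 15Q and 4060 to 5090 in 84Q. Of 10 Purkinje cell markers 8 were positive and 3 passed, with overlapping sums of 7330 to 7630 CPM in 15Q and 7040 to 7760 in 84Q. The sums of 15Q and 84Q also overlapped for the markers of granule cells, of which 8 of 10 were negative with a median log2 fold change of -0.052, and of astrocytes and Bergmann glia, of which 6 of 10 were negative with a median of -0.046; none of either list passed. The sums of intestinal and muscle markers also separated 15Q from the other groups. The part of these markers in the result was not tested, and in bulk tissue fewer cells of a type and less RNA per cell cannot be told apart.

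**Figure D3:**
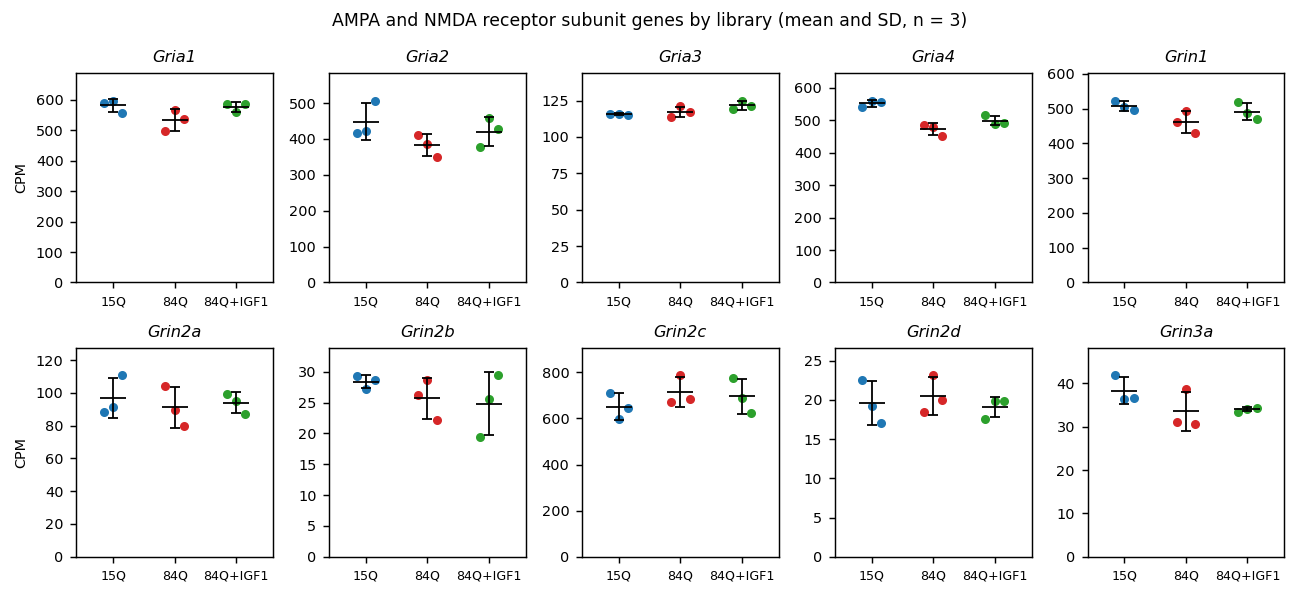
Counts per 1000000 (CPM) of each subunit gene in every library, with 3 points per group (15Q blue, 84Q red, 84Q+IGF1 green) and the mean and SD in black. Axes start at 0, and the 3 groups lie close together in each panel. In the panel of Gria4 the 15Q points, at 540 to 561 CPM, are above all others.

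The other AMPA subunit genes did not pass at any fold. Gria1, encoding GluA1, measured 590, 598 and 558 CPM in 15Q, 498, 568 and 536 CPM in 84Q, and 586, 559 and 587 CPM in 84Q+IGF1. The groups overlapped, and 84Q differed from 15Q by -0.12 on the log2 scale (interval -0.26 to 0.01, adjusted p = 0.304). Gria2, whose subunit makes the receptor poorly permeable to calcium, measured 417, 421 and 507 CPM in 15Q, 410, 387 and 351 CPM in 84Q, and 377, 457 and 428 CPM in 84Q+IGF1. The 84Q libraries lay below the 15Q libraries without overlap, the log2 fold change was -0.23 (interval -0.44 to -0.02), as for Gria4, but the adjusted p was 0.214, and only without the filter on low counts was it lower than 0.1, at 0.0279. Without 15Q replicate 3, the library with the highest value, the log2 fold change of Gria2 was -0.13. Gria3, encoding GluA3, was the steadiest of the 10 genes, with 116, 116 and 115 CPM in 15Q, 114, 121 and 117 CPM in 84Q, and 119, 125 and 121 CPM in 84Q+IGF1. Its log2 fold change was 0.02 (interval -0.08 to 0.12) in 84Q against 15Q and 0.07 (interval -0.03 to 0.17, adjusted p = 0.47) in 84Q+IGF1 against 15Q, where the groups did not overlap.

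Grin1, the subunit common to NMDA receptors, measured 523, 504 and 495 CPM in 15Q, 461, 494 and 429 CPM in 84Q, and 518, 486 and 470 CPM in 84Q+IGF1. The 84Q libraries were below the 15Q libraries, nearly touching them at the closest pair, and the log2 fold change was -0.14 (interval -0.28 to 0.01, adjusted p = 0.282). Its antisense gene Grin1os, at 31.4, 31.8 and 30.7 CPM in 15Q and 25.3, 27.3 and 26.2 CPM in 84Q, differed by -0.25 on the log2 scale (adjusted p = 0.115).

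Among the GluN2 genes, Grin2c, the subunit typical of mature granule cells, measured 712, 596 and 644 CPM in 15Q, 673, 789 and 682 CPM in 84Q, and 776, 689 and 622 CPM in 84Q+IGF1. These groups overlapped, and 84Q differed from 15Q by 0.14 on the log2 scale (interval -0.07 to 0.34, adjusted p = 0.469). Grin2a, encoding GluN2A, measured 88.4, 91.2 and 111 CPM in 15Q, 104, 89.5 and 79.7 CPM in 84Q, and 99.6, 95.1 and 86.9 CPM in 84Q+IGF1, with a log2 fold change of -0.09 (interval -0.32 to 0.14) in 84Q against 15Q. Grin2b, the GluN2B gene that is high in the forebrain and in immature neurons, measured 29.3, 27.2 and 28.6 CPM in 15Q, 26.3, 28.6 and 22.1 CPM in 84Q, and 19.4, 25.5 and 29.5 CPM in 84Q+IGF1. Its spread was widest in the treated group, and its interval, -0.44 to 0.15 in 84Q against 15Q, was the widest of the 10 genes. Grin2d, encoding GluN2D, measured 22.6, 19.2 and 17.0 CPM in 15Q, 18.4, 23.2 and 20.0 CPM in 84Q, and 17.6, 19.8 and 19.9 CPM in 84Q+IGF1, with a log2 fold change of 0.07 (interval -0.19 to 0.33). The direction of Grin2a and Grin2d depended on single libraries and turned when 15Q replicate 3 was left out, to 0.03 and -0.02.

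Grin3a, encoding the GluN3A subunit, measured 42.0, 36.4 and 36.6 CPM in 15Q, 31.2, 38.8 and 30.7 CPM in 84Q, and 33.5, 34.1 and 34.4 CPM in 84Q+IGF1. The treated group lay below the 15Q group, and in 84Q only replicate 2 reached it. The log2 fold change was -0.19 (interval -0.4 to 0.02, adjusted p = 0.298) in 84Q against 15Q, -0.17 (interval -0.38 to 0.03, adjusted p = 0.364) in 84Q+IGF1 against 15Q and -0.18 (interval -0.35 to -0.01, adjusted p = 0.188) in the pooled comparison. Only 1 of the fits that each left out a library brought Grin3a under 0.1, the fit without 84Q replicate 2. Its adjusted p was then 0.0971 in 84Q against 15Q and 0.0818 in the pooled comparison. 84Q replicate 2 had the most choroid plexus RNA, but 15Q replicates 1 and 3 were rich in it too. Without 15Q replicate 1, the highest in Grin3a, the log2 difference shrank to -0.12 (adjusted p = 0.562) and, pooled, to -0.11 (adjusted p = 0.496). Without 84Q replicate 3 it was -0.13 and, pooled, -0.16. Without all choroid plexus-rich libraries, a fit with 1 15Q library, it was -0.23, pooled -0.14, and -0.09 in 84Q+IGF1 against 15Q.

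**Figure D4:**
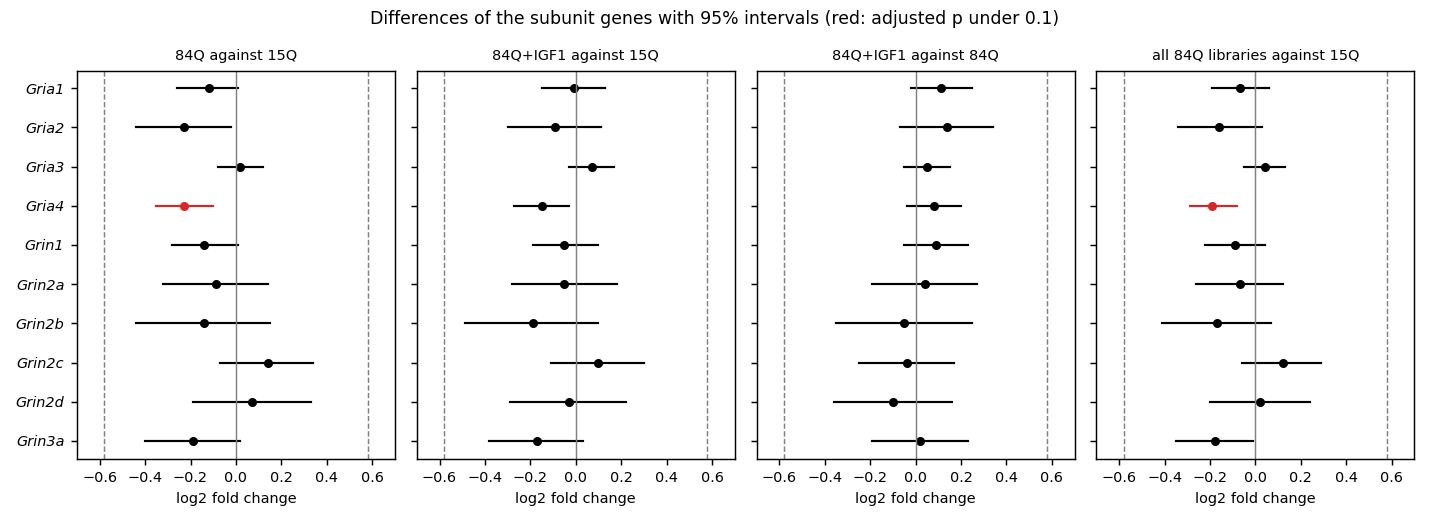
Log2 fold change (points) with 95% interval (lines) of each subunit gene in the 4 comparisons, with dashed lines at ±0.58, a fold of 1.5. All intervals lie between the dashed lines, and Gria4, in red, had an adjusted p under 0.1 in 84Q against 15Q and in all 84Q libraries against 15Q.

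Counted together, 7 of the 10 genes had a negative log2 fold change in 84Q against 15Q, with a median of -0.13, where the median of all genes was -0.002. For 84Q+IGF1 against 15Q 8 were negative, with a median of -0.05, and in the pooled comparison 7 were negative, with a median of -0.08. In 84Q+IGF1 against 84Q 7 were positive, with a median of 0.05. The groups did not overlap for 3 genes in 84Q against 15Q (Gria2, Gria4 and Grin1, all lower, with 25.4% of all genes not overlapping and 13.5% in the lower direction). They did not overlap for 3 genes in 84Q+IGF1 against 15Q (Gria4 and Grin3a lower, Gria3 higher, background 24.7%). For 84Q+IGF1 against 84Q and for the pooled comparison it was 1 gene each, Gria4, higher in the former (background 8.46%, higher 3.96%) and lower in the latter (background 12.3%, lower 6.37%). An unadjusted p under 0.05 was reached by 2, 1, 0 and 2 members, where 19.4%, 17.7%, 4.68% and 22.7% of all genes did so. Counted in either direction, 3 of 10 members not overlapping in 84Q against 15Q was near the 25.4% of all genes. All 3 were lower, but 2 of them were barely apart at the closest pair. For Grin1 this pair was 494 CPM in 84Q and 495 in 15Q, and for Gria2 410 and 417. The shares at an unadjusted p under 0.05 were near or below those of all genes. For IGF1 against no IGF1 in 84Q mice, 0 of the 10 genes passed at any fold by edgeR or DESeq2, and edgeR called none of the 19353 genes, of which 905 had an unadjusted p under 0.05, while DESeq2 called 6 genes.

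The genes that work with these receptors were taken from 6 lists of 91 genes, of which 89 were tested. None was called at the fold threshold in any of the 4 comparisons. At any fold, 3 passed in 84Q against 15Q (1 higher, 2 lower, against a background of 4.8%) and 9 in the pooled comparison (3 higher, 6 lower, background 10%), and 0 in 84Q+IGF1 against 15Q or against 84Q. An unadjusted p under 0.05 was reached by 20 of the 89 in 84Q against 15Q (19.4% of all genes), by 14 in 84Q+IGF1 against 15Q (17.7%), by 2 in 84Q+IGF1 against 84Q (4.68%) and by 20 in the pooled comparison (22.7%). The median log2 fold change of the 89 genes was -0.012 in 84Q against 15Q and -0.016 in the pooled comparison. These calls depended on single libraries: in 84Q against 15Q none of the 89 passed without 15Q replicate 2 or without 15Q replicate 3, Shank1 alone passed without 84Q replicate 2 and Cacng2 alone without 84Q replicate 3, while 6 passed without 84Q+IGF1 replicate 1. In the pooled comparison 1 passed without 15Q replicate 2, 3 without 15Q replicate 3 or 84Q replicate 3, 4 without 84Q+IGF1 replicate 1 and 5 without 15Q replicate 1. With each of the 9 libraries left out in turn, the pooled adjusted p stayed under 0.1 in 8 of 9 fits for Cacng2, in 7 for Slc1a6 and Slc1a2, in 6 for Slc6a5, in 5 for Camk4, in 4 for Slc6a9, in 3 for Pick1 and Grm3 and in 2 for Ppp1ca. The adjusted p in 84Q against 15Q stayed under 0.1 in 5 of 9 such fits for each of Cacng2, Shank1 and Slc1a6. With Xist as a covariate, 0 of the 89 passed in 84Q against 15Q and 2 in the pooled comparison, Cacng2 and Shisa9, another auxiliary subunit.

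Among the 16 auxiliary subunits, Cacng2 (stargazin), the protein that brings AMPA receptors to the surface of granule cells, measured 195, 193 and 182 CPM in 15Q, 156, 153 and 166 CPM in 84Q, and 165, 175 and 153 CPM in 84Q+IGF1. All 6 libraries with 84 repeats were below the 15Q libraries, as for 6.37% of all genes. Cacng2 fell by 0.26 in 84Q against 15Q (SE 0.06, adjusted p = 0.0546) and by 0.24 in the pooled comparison (SE 0.05, adjusted p = 0.0271), while in 84Q+IGF1 against 15Q the log2 fold change was -0.21 (adjusted p = 0.119). Olfm1, a secreted protein found in AMPA receptor complexes, differed by 0.2 in the pooled comparison (adjusted p = 0.128). The remaining 14 auxiliary genes did not pass in these comparisons.

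Of the 26 scaffold and trafficking genes, Shank1, a scaffold of the postsynaptic density, measured 714, 756 and 709 CPM in 15Q, 607, 642 and 587 CPM in 84Q, and 685, 706 and 635 CPM in 84Q+IGF1, and fell by 0.25 in 84Q against 15Q (adjusted p = 0.0706). Pooled, its log2 fold change was -0.17 (adjusted p = 0.12). Pick1, which binds GluA2 and takes part in its endocytosis, rose by 0.25 in the pooled comparison (adjusted p = 0.0812), from 16.8 to 18.8 CPM in 15Q to 19.4 to 23.4 CPM in the 6 libraries with 84 repeats. The list of other ionotropic receptors held the kainate and delta receptor genes and Grin3b, the gene of the GluN3B subunit, which was not among the 10 subunit genes. It had no member past the test: Grin3b, at a mean of 2.83 ± 0.436 CPM in 15Q (SD, n = 3), had a pooled log2 fold change of 0.19 (adjusted p = 0.471), and Grik3, a kainate receptor gene, one of -0.11 (adjusted p = 0.363). Of the metabotropic receptors, Grm3 fell by 0.27 in the pooled comparison (adjusted p = 0.0809) and Grm5 differed by -0.38 (adjusted p = 0.215).

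The list of 19 postsynaptic enzymes held kinases and phosphatases and also the nitric oxide synthase gene Nos1 and the RNA editing enzyme genes Adar and Adarb1, which did not pass in any comparison. In this list Ppp1ca, a catalytic subunit of protein phosphatase 1, rose by 0.2 (adjusted p = 0.0788) in the pooled comparison. Camk4, a calcium/calmodulin-dependent kinase of granule cells, measured 88.2, 108 and 177 CPM in 15Q, 91.6, 77.1 and 72.8 CPM in 84Q, and 84.3, 98.6 and 82.0 CPM in 84Q+IGF1. The 15Q libraries were spread widely and overlapped the others, and Camk4 fell by 0.56 in the pooled comparison (adjusted p = 0.069). Single libraries decided this result. Without 15Q replicate 3, the library with the highest value, the pooled log2 fold change of Camk4 was -0.21 (adjusted p = 0.396), and the adjusted p was also above 0.1 without 15Q replicate 2 (0.125), 84Q replicate 3 (0.123) or 84Q+IGF1 replicate 1 (0.111). Without 15Q replicate 1, the library with the lowest value of its group, Camk4 was past the fold threshold in all 3 comparisons with 15Q, at -0.75 (adjusted p = 0.0141) in the pooled comparison.

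In the list of glutamate and co-agonist supply, Slc1a6, the glutamate transporter of Purkinje cells, measured 135, 112 and 122 CPM in 15Q, 136, 164 and 169 CPM in 84Q, and 149, 146 and 142 CPM in 84Q+IGF1. The 15Q libraries were the lowest, nearly touching the others at the closest pair (135 and 136 CPM). In the pooled comparison 12.3% of all genes did not overlap. Slc1a6 rose by 0.34 in 84Q against 15Q (SE 0.08, adjusted p = 0.0643) and by 0.29 in the pooled comparison (adjusted p = 0.0448). Slc1a6 is also in the list of Purkinje cell markers, of which 8 of 10 had a positive log2 fold change in 84Q against 15Q and 3 passed at any fold, although the summed level was 7330 to 7630 CPM in 15Q and 7040 to 7760 CPM in 84Q. Slc1a2, the glutamate transporter of astrocytes, fell by 0.32 in the pooled comparison (adjusted p = 0.0522). Slc6a9 and Slc6a5, the glycine transporters of glia and of glycinergic neurons, named here after their values were seen, fell by 0.18 (adjusted p = 0.0739) and 0.24 (adjusted p = 0.0697).

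Slc1a3, the transporter of Bergmann glia, is another gene named after its values were seen, because a single library decided its result. It measured 1350 CPM in 15Q replicate 1 but 709 and 669 CPM in the other 15Q libraries, and between 1100 and 1240 CPM in the 6 libraries with 84 repeats. With all libraries 84Q differed from 15Q by 0.37 on the log2 scale (interval -0.07 to 0.82, adjusted p = 0.339), and without 15Q replicate 1 it was 0.78 (adjusted p = 0.000203).

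**Figure D5:**
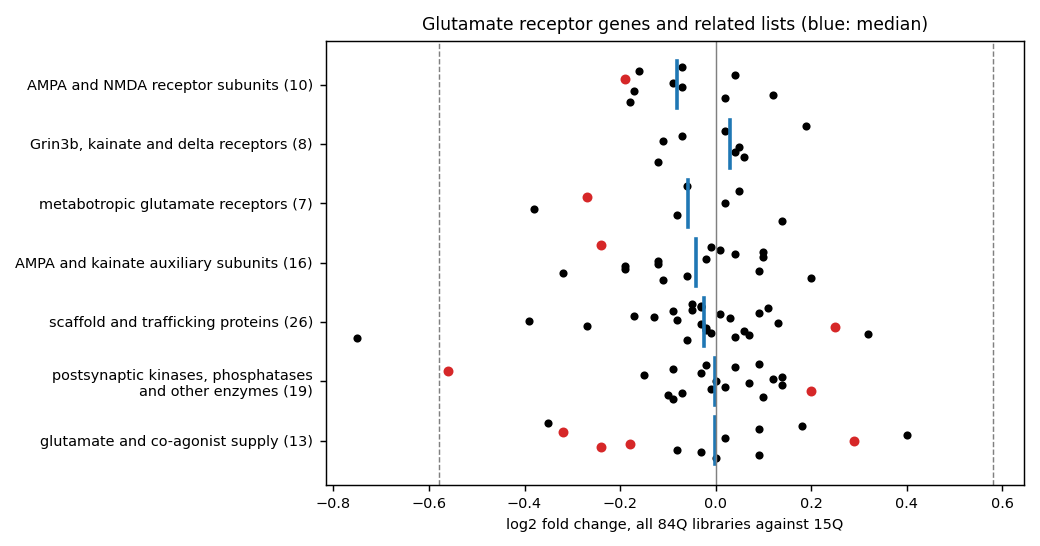
Log2 fold change of each tested gene in all 84Q libraries against 15Q, for the 10 subunit genes and the 6 lists of related genes (number tested in parentheses), with the list median in blue, genes at an adjusted p under 0.1 in red and dashed lines at a fold of 1.5. The list medians lie near 0, and the 1 point beyond a dashed line is black, so that it did not pass the test.

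To describe which genes followed the subunits from library to library, the Pearson correlation of log2 CPM over the 9 libraries was computed with 15936 genes of at least 1 CPM. The values are the highest of many and rest on 9 libraries that share their groups, depth and tissue composition, so no p is given. Gria1 was most like Ccdc167 (r = 0.97), Gm20712 (0.935) and Smad3 (0.917). Gria2 was most like Ints6l (0.992), Top2b (0.977) and Zdhhc21 (0.976). For Gria3 the genes were Pgam2 (0.961), Acot11 (0.954) and Gm21093 (0.947), and for Gria4 they were Gm11889 (0.976), Gm48275 (0.973) and Gm2058 (0.965). Grin1 was followed by Kmt2b (0.973), Gm43604 (0.957) and Setd1a (0.948). Grin2a was followed by Osbpl3 (0.99), Airn (0.964) and Bmp5 (0.928), and Grin2b by Ston2 (0.974), Duxbl2 (0.971) and Mns1 (0.968). Grin2c was most like Iqsec2 (0.974), Abca3 (0.973) and Sugp2 (0.961). For Grin2d the genes were Iqsec3 (0.973), Cfap99 (0.948) and Cd38 (0.945), and for Grin3a Ift140 (0.945), Cpxm1 (0.942) and 4833413G10Rik (0.933). No subunit gene was among the 3 most like genes of another. Between subunit genes the correlation was highest for Grin1 with Grin3a and with Gria4 (0.76 each) and lowest for Grin2a with Grin2d (-0.68).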

How the data were processed

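Strand-specific, paired-end RNA-seq libraries were made from the cerebellum of 9 mice. Per the submitters' processing notes the tools were Trimmomatic 0.36 (trimming), HISAT2 2.2.0 (alignment, mm10) and featureCounts; which annotation and strand setting the authors counted with is not given in the sources used here. The deposited values are unnormalized counts per gene. Of 37816 genes, 37681 had a position in GENCODE vM21.

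Groups were compared with the quasi-likelihood test of edgeR 4.0.16 in R 4.3.3. Genes were kept by filterByExpr, libraries were scaled by TMM, 1 fit held all 9 libraries and another the 2 groups of the pooled comparison, and p-values were adjusted by Benjamini-Hochberg over 19353 genes. CPM used TMM-scaled totals, TPM the summed exon or coding length, and log2 CPM a prior count of 2. Tests are two-sided. The floor of 3 counts was 0.0513 to 0.171 CPM, which covers counting error only. The steps were tested on simulated data.

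The 10 genes and the lists were chosen with earlier results of these data known. All 10 were named, with the 2 genes of smallest p in the pooled comparison per related list, the 3 genes most like each member, and the leading gene of marker lists that moved. Alternatives were DESeq2 1.42.0, its size factors, no low-count filter, robust shrinkage, replicate block, Xist covariate, only the libraries compared, an adjusted p under 0.05, no fold threshold, each library left out, other gene lengths, and 1 added later. Of the named genes and sequences, 1 gene and 2 sequence stretches are not reported here.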

Additional observations from a re-analysis of the deposited data

How the results depend on the processing

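At the fold threshold 0 subunit genes were called under each alternative that kept it. Without that threshold Gria4 was the 1 gene called in 84Q against 15Q and the 1 in the pooled comparison. The fits without the choroid plexus-rich libraries, listed next, kept 1 15Q library and say little about whether a difference holds. At any fold, the number of subunit genes with an adjusted p under 0.1 in 84Q against 15Q was 2 without the filter on low counts (Gria2 and Gria4), 0 with the replicate block (Gria4 0.147), 0 with Xist as a covariate, 0 without the choroid plexus-rich libraries, and 0 to 1 with single libraries left out. In the pooled comparison it was 0 with the replicate block (Gria4 0.104), 0 with Xist, 0 without the choroid plexus-rich libraries, and 0 to 2 with single libraries left out. The replicate numbers did not pair the samples: libraries of the same number in different groups had correlated deviations of -0.309 to 0.079, and the block changed no call at the fold threshold.

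Of the 89 related genes tested, the number called at the fold threshold in 84Q against 15Q was 3 without that threshold, 1 without the low-count filter (Camk4), 1 without the choroid plexus-rich libraries (Slc1a3), and 0 to 2 with single libraries left out (Slc1a3 and Camk4 without 15Q replicate 1). In 84Q+IGF1 against 15Q it was 2 without the filter (Neto1 and Slc17a6), 1 without those libraries (Slc1a3), and 0 to 2 with single libraries left out (Slc1a3 and Camk4 without 15Q replicate 1, Neto1 without 84Q+IGF1 replicate 3). In 84Q+IGF1 against 84Q it was 1 without the filter (Slc17a6, at 0.729 CPM in 84Q+IGF1 replicate 1 and 12.5 to 26.8 CPM elsewhere). In the pooled comparison it was 9 without the threshold, 1 without the choroid plexus-rich libraries (Slc1a3), and 0 to 2 with single libraries left out (Slc1a3 and Camk4 without 15Q replicate 1, Camk4 without 84Q replicate 1 or 84Q+IGF1 replicate 2). At any fold, 84Q against 15Q gave 7 related genes by DESeq2, 14 without the filter, 0 with the replicate block, 0 with Xist, 6 with only the libraries compared, 1 without the choroid plexus-rich libraries and 0 to 6 with single libraries left out. For 84Q+IGF1 against 15Q the values were 3 by DESeq2, 11 without the filter, 1 with only the libraries compared, 1 without the choroid plexus-rich libraries and 0 to 3 with single libraries left out, and for 84Q+IGF1 against 84Q 1 without the filter. The pooled comparison gave 4 with the replicate block, 2 with Xist, 1 without the choroid plexus-rich libraries and 1 to 11 with single libraries left out. The counts without the choroid plexus-rich libraries come from fits with 1 15Q library, replicate 2, assumed to vary like the other groups. They rest on that library and say little about whether a difference holds. The cause of the differences between alternatives was not tested.

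By level, 4 neighbouring pairs were separate with coding lengths and 4 in CPM, the Gria1 share was 35.0% and 35.1%, and the Grin2c share 85.1% and 83.0%. Directions turned only for small differences. Without the choroid plexus-rich libraries, the log2 fold changes were 0.0 for Gria3 and 0.02 for Grin2a in 84Q against 15Q, 0.01 for Gria2, 0.05 for Grin2a and 0.0 for Grin2d in 84Q+IGF1 against 15Q, 0.04 for Grin2b and 0.04 for Grin2c in 84Q+IGF1 against 84Q, and 0.04 for Grin2a pooled. With Xist they were 0.03 for Grin2a in 84Q+IGF1 against 15Q, and 0.0 for Grin2a and -0.04 for Grin2d pooled. With single libraries left out, the ranges in 84Q against 15Q were 0.0 to 0.04 for Gria3, -0.2 to 0.03 for Grin2a and -0.02 to 0.18 for Grin2d. In 84Q+IGF1 against 15Q they were -0.04 to 0.02 for Gria1, -0.15 to 0.01 for Gria2, -0.11 to 0.07 for Grin2a and -0.12 to 0.08 for Grin2d. In 84Q+IGF1 against 84Q they were -0.04 to 0.15 for Grin2a, -0.19 to 0.1 for Grin2b, -0.13 to 0.04 for Grin2c and -0.04 to 0.14 for Grin3a, and pooled -0.13 to 0.05 for Grin2a and -0.07 to 0.13 for Grin2d.

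The study had 3 libraries a group, and where a library was left out of 15Q, 2 remained. The lowest count of a member was 350. The fits without the choroid plexus-rich libraries kept 1 15Q library, replicate 2, which was assumed to vary like the other groups, so their calls rest on that library.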
